A study of Mus musculus with 4 samples.

Results

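Gzmk-high cells, chosen by their own Gzmk counts, are the cells of butyrate-treated CD8+ T cell cultures in which 3 or more unique molecular identifiers (UMIs, each standing for 1 captured RNA molecule) of Gzmk were counted. They were sought among barcodes with at least 6500 UMIs, at least 500 genes and under 10% of UMIs from mitochondrial genes. There were 967 such cells among 5218 butyrate cells and 9921 cells in all, 443 in the culture of the first mouse (butyrate 1) and 524 in that of the second (butyrate 2). They were compared with butyrate cells of the same library in which no Gzmk UMI was counted, 1754 and 1706 cells. The 4 libraries came from splenocytes of 2 transgenic mice (gBT-I.CD45.1 tg), whose CD8+ T cells carry one receptor for a herpes simplex virus peptide. All cultures were activated with B6 splenocytes pulsed with the peptide gB498-505, in the presence of 6 µg LPS, and were grown with human IL-2 at 12.5 U/ml. From day 3 to day 5 the But cultures received 0.5 mM sodium butyrate and the Ctrl cultures PBS. There was 1 culture of each kind per mouse. Viable CD8+Vα2+ cells were then sorted and captured in droplets, with day 6 given as the day of sequencing. These are cultured cells with a single receptor specificity, and no age or sex of the mice was given in the labels.

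Granzymes are serine proteases that cytotoxic lymphocytes store in granules and deliver to target cells through pores made by perforin, the product of Prf1. Granzyme K, encoded by Gzmk, is a trypsin-like member of the family and lies beside Gzma in the genome. In mouse and human CD8+ T cells, Gzmk is known as a mark of some effector-memory and pre-exhausted states, in which the T-box factor Eomes is often present. Butyrate, which gut bacteria release as they ferment fibre, is a short-chain fatty acid and inhibits histone deacetylases.

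Library totals ranged from 64388093 to 76522004 UMIs, and 1 to 5 cell barcodes were shared by any pair of libraries. No cell barcode was shared between the Gzmk-high cells of the 2 butyrate libraries. Of the 13 CD8 T cell markers, none was at 0 in any class of cells, and their summed level was 11574 and 11953 CPM in the Gzmk-high cells. Each class of cells was summed per library, and a level in CPM is the gene's UMIs per 1000000 UMIs of the sum.

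The Gzmk counts themselves chose the cells and are given without a test. Gzmk (ENSMUSG00000042385) made up 59.1 and 70.6 CPM of the butyrate libraries' cells against 2.05 and 2.16 CPM of the control cells. Cells with 3 or more Gzmk UMIs made up 17.3% (95% exact binomial interval 15.9 to 18.8) of butyrate 1 and 19.7% (18.2 to 21.3) of butyrate 2. In the control libraries, 13 of 2065 cells (0.630%, interval 0.336 to 1.07) and 9 of 2638 cells (0.341%, interval 0.156 to 0.647) had as many. These intervals cover counting error only. The Gzmk-high cells held 88.0 and 87.6% of all Gzmk UMIs and 21.7 and 24.2% of all UMIs, where the first share is largely set by the rule. No Gzmk UMI was counted in 68.5 and 64.2% of butyrate cells, where an even Poisson spread over cells in proportion to their depth would leave 26.1 and 22.2%. The same spread would put 3 or more Gzmk UMIs in 22.9 and 28.0% of cells, above the 17.3 and 19.7% counted. The median Gzmk-high cell held 6 Gzmk UMIs in both libraries, and the highest held 45 and 53. At the threshold, 90 and 97 cells had exactly 3 Gzmk UMIs and 127 and 171 cells had exactly 2, so the distribution shows no gap there. Droplets with 10 to 100 UMIs, which hold free RNA, had Gzmk at 32.7 and 45.1 CPM in butyrate and 2.61 and 2.83 CPM in control. The part of free RNA in the low Gzmk counts was not tested.

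**Figure D1:**
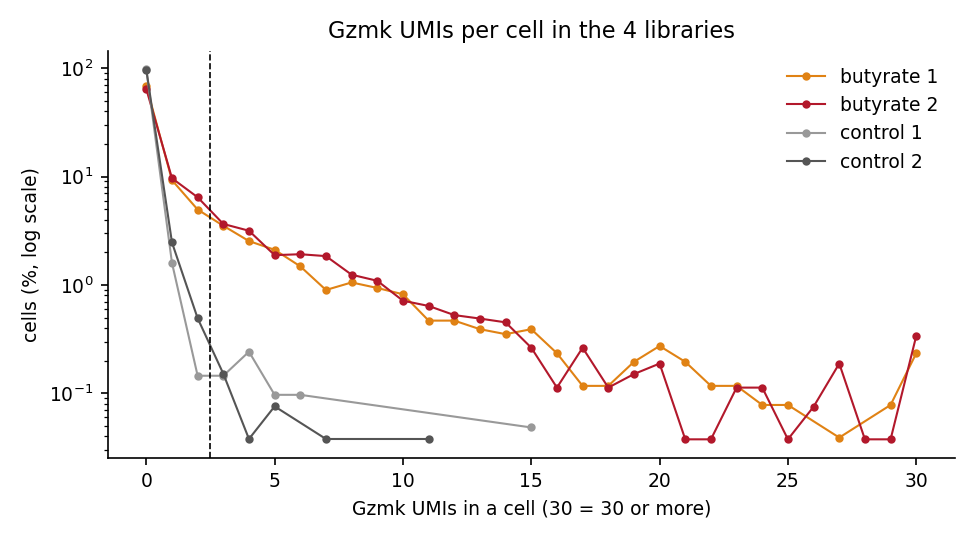
Percentage of cells (log axis) with each number of Gzmk UMIs in the 4 libraries, with cells of 30 or more UMIs in 1 point and numbers held by no cell left out. The dashed line marks the limit for Gzmk-high cells, and both butyrate libraries run above both control libraries from 1 UMI upwards.

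Gzmk-high cells were the deeper cells of their cultures. Their median depth was 33422 and 30009 UMIs, against 23325 and 21891 UMIs in Gzmk-zero cells. When the cells of a library were ordered by total UMIs and divided into 5 groups of like size, the share of Gzmk-high cells went from 5.46% in the shallowest to 31.1% in the deepest group of butyrate 1, and from 7.33% to 33.1% in butyrate 2. More RNA in a cell and more chance to count Gzmk cannot be told apart in these shares. Each Gzmk-high cell was therefore paired with the Gzmk-zero cell of its own library nearest in total UMIs, within 5%. This paired 438 and 523 cells, with median depths of 33219 and 29963 UMIs against 33215 and 29983 UMIs. At matched depth the Gzmk-high cells had medians of 4583.5 and 4478 genes, against 4644.5 and 4534 in the Gzmk-zero cells. Their median mitochondrial share was 3.26 and 3.48%, against 3.38 and 3.63%.

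**Figure D2:**
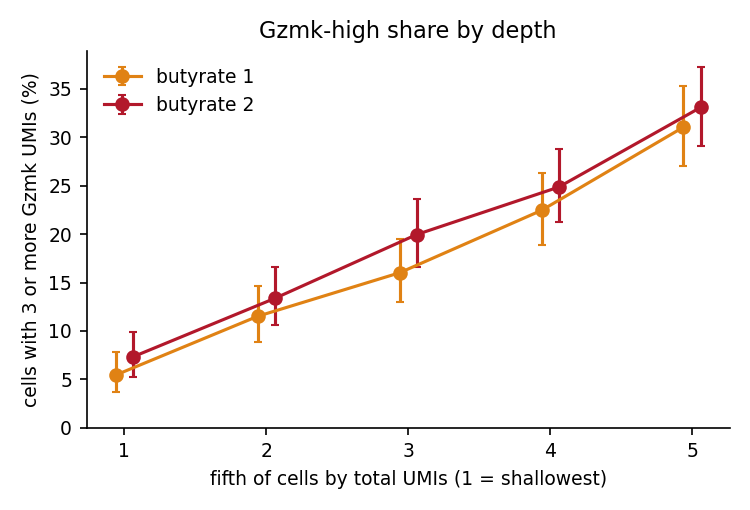
Percentage of butyrate cells with 3 or more Gzmk UMIs in each of 5 groups of cells by total UMIs, per library, with 95% exact binomial intervals. The share is higher in each deeper group of both libraries.

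The next question was which other genes differ between Gzmk-high and Gzmk-zero cells of the same depth and culture. Summed counts of the 2 classes were compared over 11515 genes with edgeR's quasi-likelihood test, with the library as a block and Gzmk left out. Of these genes, 321 rose (2.79%) and 243 fell (2.11%) at a Benjamini-Hochberg adjusted p under 0.05, which is 4.90% in both directions. Of the 564 genes, 560 had the same direction in both libraries and 119 changed by at least 1.5-fold, 62 of them upwards. The median of all genes was a log2 fold change of 0.0025. With 2 pairs of sums the fit took the median gene's spread wholly from values shared across genes (common biological coefficient of variation 0.0168). Its p-values thus mostly measure counting error, and the fold in each library is the better guide to how far a gene's change repeats. DESeq2 on the same sums called 34 genes higher (0.389% of 8749) and 20 lower (0.229%), and all 54 were among edgeR's calls with the same direction. Without the block, edgeR called 86 higher and 54 lower. Below, a gene rose or fell if it passed edgeR's test, and 2 values in a row refer to butyrate 1 and butyrate 2. A count of alternatives gives how many of 10 other analyses also called the gene. Counts from gene lists stand beside 2.79% of all tested genes rising and 2.11% falling.

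**Figure D3:**
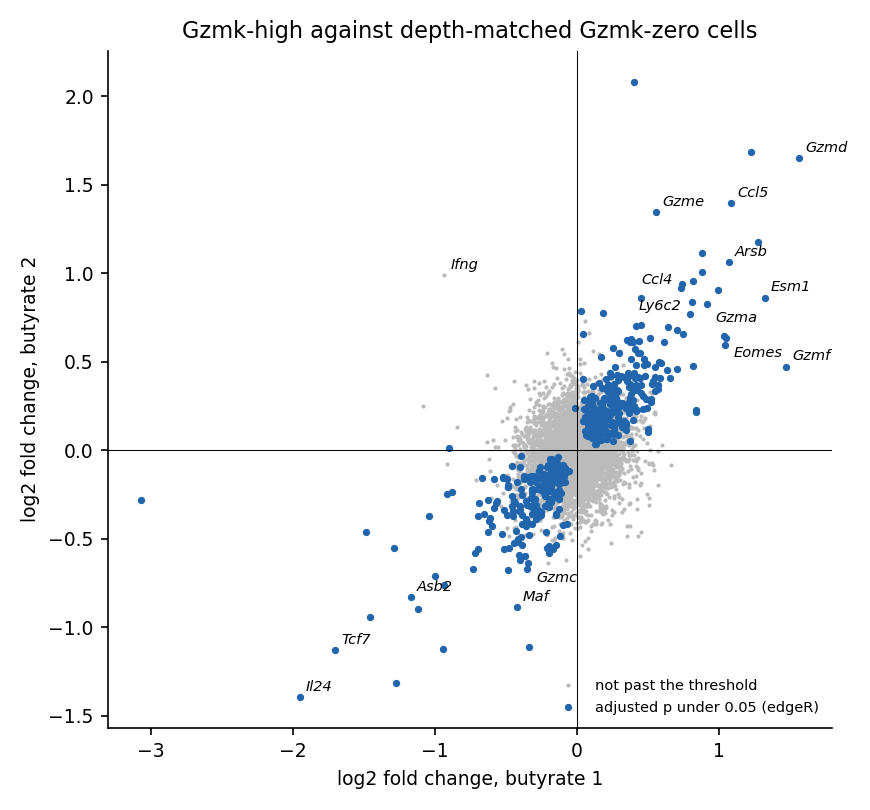
Log2 fold change of Gzmk-high over depth-matched Gzmk-zero cells in butyrate 1 (horizontal) and butyrate 2 (vertical) for the 8158 genes whose mean level reached 5 CPM, with genes past edgeR's threshold in blue. Gzmd, Ccl5 and Esm1 lie at the upper right and Il24 and Tcf7 at the lower left, while Ifng lies on opposite sides of 0 in the 2 libraries.

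Of the 4 genes named with Gzmk as marks of these cells, Gzma, Prf1 and Ccl4 rose and Ifng did not pass. They had been chosen with results of these data in view, so their direction is no independent evidence. Gzma, a granzyme that cleaves after basic residues, was at 12112 and 13988 CPM in Gzmk-high cells, 6529 and 8068 CPM in matched Gzmk-zero cells and 1380 and 1849 CPM in all control cells. Both Gzmk-high sums lay above both Gzmk-zero sums, and the log2 difference was 0.87 (SE 0.03, 0.92 and 0.83 by library, called in 8 of 10 alternatives). Single cells overlapped: the highest held 1787 and 2591 Gzma UMIs in Gzmk-high and 1759 and 2115 in matched Gzmk-zero cells. Prf1 was at 889 and 902 CPM against 454 and 493 CPM, with 28.5 and 33.3 CPM in control. Its log2 difference was 0.95 (SE 0.03, 1.00 and 0.91 by library, 8 of 10 alternatives). Ccl4, a chemokine that attracts T cells and monocytes, was at 97.6 and 150 CPM against 59.6 and 81.1 CPM, a log2 difference of 0.84 (SE 0.04) that 4 of 10 alternatives called. All Gzmk-zero cells, without depth matching, had Ccl4 at 99.8 and 85.2 CPM, in butyrate 1 no lower than the Gzmk-high cells. Its UMIs came from few cells: 5 cells held 41.9 and 34.2% of them among the Gzmk-high cells and 57.1 and 54.0% among the Gzmk-zero cells.

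Ifng, the gene of interferon gamma, differed in direction between the libraries. Its level was 15.8 and 19.7 CPM in Gzmk-high cells and 30.7 and 10.1 CPM in matched Gzmk-zero cells, giving log2 differences of -0.93 and 0.99 (edgeR adjusted p = 0.698 for both libraries together). In the Gzmk-zero cells of butyrate 1, a single cell held 291 of the 448 Ifng UMIs, and 5 cells held 77.5% of them. The share of cells with an Ifng UMI gave another picture, shown next.

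Shares of cells with a UMI were compared after thinning each cell to 8000 UMIs, which left out 45 and 48 Gzmk-zero and 0 and 2 Gzmk-high cells. An Ifng UMI remained in 10.2 and 10.7% of Gzmk-high cells, against 5.73 and 5.79% of Gzmk-zero cells and 0.402 and 0.873% of control cells. For Ccl4 the shares were 17.6 and 24.5% against 13.6 and 15.4%, with 1.51% in both control libraries. For Prf1 they were 75.4 and 73.4% against 54.5 and 54.3%, with 11.6 and 11.4% in control. For Gzma they were 98.9 and 99.4% against 83.1 and 87.5%, with 55.6 and 62.3% in control. All 4 shares were thus higher in Gzmk-high than in Gzmk-zero cells of both libraries. For Ccl4, exact binomial intervals overlapped in butyrate 1 (14.2 to 21.5 against 11.99 to 15.3) but not in butyrate 2. Thinned cells with 1 or 2 Gzmk UMIs had 97.2 and 97.4% for Gzma and 66.4 and 67.1% for Prf1. They had 18.6 and 19.95% for Ccl4 and 6.78 and 11.1% for Ifng. Their shares were above those of Gzmk-high cells for Ccl4 in butyrate 1 and Ifng in butyrate 2, and lower otherwise. Against the depth-matched partners, thinned alike, the Ifng shares were 10.3 and 10.7% against 5.71 and 5.95%. The exact binomial intervals of these Ifng shares, which cover counting error only, overlapped in both libraries (7.59 to 13.5 against 3.73 to 8.31, and 8.22 to 13.7 against 4.08 to 8.34). Free RNA held these genes too: droplets with 10 to 100 UMIs in the butyrate libraries had Gzma at 6217 and 9384 CPM, Prf1 at 262 and 410 CPM, Ccl4 at 106 and 114 CPM and Ifng at 9.13 and 16.3 CPM. Its part in the shares was not tested. Unthinned, the shares were 100 and 99.6% against 92.1 and 95.1% for Gzma, 88.9 and 89.3% against 71.4 and 68.4% for Prf1, 37.9 and 44.3% against 24.7 and 26.4% for Ccl4, and 23.7 and 23.9% against 12.03 and 11.5% for Ifng. After thinning to 8000 UMIs, which itself lowers such shares, the markers were seldom all seen in 1 cell. Unthinned cells were not counted this way, so these shares do not show whether the markers mark different cells. All 4 had a UMI in 2.71 and 4.21% of thinned Gzmk-high cells, and in 0.913 and 2.495% of their depth-matched partners. None of the 4 had one in 0.677 and 0.383% of Gzmk-high cells, against 10.3 and 6.72% of the partners. With 2 libraries, a paired permutation test cannot go below p = 0.5, and none was run on these shares.

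Among 20 tested granzyme and granule genes, 10 rose, 1 fell and 9 did not pass, with a median log2 difference of 0.29. Prf1, Gzma and 3 granzymes of the Gzmb cluster, Gzmd, Gzme and Gzmf, were among those that rose. Gzmd was at 49.9 and 190 CPM against 17.1 and 61.8 CPM, a log2 difference of 1.63. Few cells held most of its UMIs or a large part of them. In Gzmk-high cells, 5 cells held 41.3 and 46.2% of the Gzmd UMIs, and in Gzmk-zero cells 93.6 and 73.4%. Gzme (0.56 and 1.35 by library) and Gzmf (1.47 and 0.47) varied more between the libraries, and 3 and 2 of 10 alternatives called them. Gzmc, also of that cluster, fell, from 4702 and 4485 CPM in Gzmk-zero cells to 3644 and 2814 CPM in Gzmk-high cells (log2 difference -0.49, 2 of 10 alternatives). Gzmb itself was at 10997 and 10384 CPM against 10421 and 10512 CPM, and did not pass (log2 difference 0.06, SE 0.03, edgeR adjusted p = 0.198). In 4 of 10 alternatives Gzmb was called, with log2 differences of up to 0.33 over all of them, and all Gzmk-zero cells, without depth matching, had 8833 and 8971 CPM. The granzymes of that cluster are close in sequence, so UMIs may have been assigned to the wrong member. Among genes that protect the cell or move granules, Serpinb9, an inhibitor of granzyme B, rose by 0.54, Serpinb6b by 0.69, Nkg7, which aids granule release, by 0.32 and Rab27a, which docks granules, by 0.32, each on the log2 scale. These 4 genes, and Prdm1 among the transcription factors, were singled out after their values were seen.

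Of 5 tested chemokines, 3 rose and none fell. Ccl5, which attracts many of the same cells, was at 1865 and 2121 CPM against 894 and 824 CPM, and at 63.7 and 110 CPM in control. Both Gzmk-high sums lay above both Gzmk-zero sums, with a log2 difference of 1.24 (1.09 and 1.40 by library, 4 of 10 alternatives), and DESeq2 called it too (adjusted p = 2.04e-06). Ccl3, a chemokine related to Ccl4, rose by 0.49 (0.05 and 0.66 by library, 3 of 10 alternatives), and in butyrate 2, 5 cells held 64.3% of its UMIs in Gzmk-high and 82.1% in Gzmk-zero cells. Of 15 tested cytokine genes, 1 rose, 5 fell and 9 did not pass, with a median log2 difference of -0.11. Il24, a cytokine of the IL-10 family, was at 6.86 and 9.83 CPM against 27.3 and 26.7 CPM, a log2 difference of -1.65 (SE 0.10) that all 10 alternatives called. In the Gzmk-zero cells, 5 cells held 44.0 and 61.7% of the Il24 UMIs. Csf2, the gene of GM-CSF, fell by 1.14 on the log2 scale, with -1.75 in butyrate 1 and -0.13 in butyrate 2. In the Gzmk-zero cells of butyrate 1, 5 cells held 60.5% of the Csf2 UMIs. Osm, an IL-6 family cytokine, rose by 0.34.

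Of 20 tested effector transcription factors, 7 rose, 5 fell and 8 did not pass (median log2 difference 0.09). Eomes, a T-box factor of effector and memory CD8+ T cells, was at 56.5 and 62.2 CPM in Gzmk-high cells and 27.7 and 41.0 CPM in Gzmk-zero cells. Its log2 difference was 0.81 (SE 0.06, DESeq2 adjusted p = 7.56e-06, 9 of 10 alternatives). In control cells Eomes was at 55.5 and 65.2 CPM, and it was lower in Gzmk-zero butyrate than in Gzmk-zero control cells by 0.57 on the log2 scale (edgeR adjusted p = 0.0254). The other T-box factor of these cells, Tbx21, was at 26.2 and 26.6 CPM against 24.02 and 22.99 CPM and did not pass (log2 difference 0.20, edgeR adjusted p = 0.134). Prdm1, the gene of the effector factor Blimp-1, rose by 0.46 and Irf8 by 0.30. Maf fell by 0.71, Hic1 by 1.03 and Ikzf2, the gene of Helios, by 0.53.

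Of 16 tested memory and stem-like genes, 1 rose and 3 fell. Tcf7, the gene of the stem-like factor TCF-1, was at 2.67 and 3.46 CPM against 9.13 and 7.91 CPM, and at 32.0 and 33.1 CPM in control. Its log2 difference was -1.42 (SE 0.17, -1.70 and -1.13 by library, DESeq2 adjusted p = 0.0461, 9 of 10 alternatives). It was also lower in Gzmk-zero butyrate than in Gzmk-zero control cells, by 1.45 on the log2 scale (edgeR adjusted p = 9.67e-12). Id3 fell by 0.87 and Satb1 by 0.32. Klf2, which controls exit from lymphoid tissue, rose by 0.82, from 15.4 and 22.02 to 31.3 and 33.8 CPM. All 10 alternatives called Klf2, but against all Gzmk-zero cells, without depth matching, its log2 difference was 0.20. Il7r, the CD127 gene that the series is about, was at 40.4 and 44.4 CPM against 47.3 and 48.8 CPM and did not pass (log2 difference -0.15, SE 0.06, edgeR adjusted p = 0.139). Klrg1, a receptor of terminal effector cells, rose by 1.26 but stayed at 1.99 and 2.79 CPM, and its log2 difference was -0.31 in the cells below the median share of cell cycle RNA.

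Of 11 tested genes of receptors and adaptors shared with natural killer cells, 5 rose, none fell and 6 did not pass (median log2 difference 0.40). Tyrobp, the DAP12 adaptor of activating receptors, was at 43.2 and 49.0 CPM against 26.1 and 31.7 CPM (log2 difference 0.70), and Klrb1c, the NK1.1 gene, at 18.9 and 24.6 CPM against 11.5 and 13.1 CPM (0.86). All 10 alternatives called both, and DESeq2 gave adjusted p = 0.00131 and 0.0314. The other 3 were Fcer1g, Klre1 and Klrg1. The summed level of the 17 listed NK markers was 404 and 508 CPM in Gzmk-high and 368 and 419 CPM in Gzmk-zero cells, and Ncr1, the NKp46 gene and a defining NK marker, was at 0 in all 4 sums. Ly6c2, a surface protein of monocytes and of effector and memory CD8+ T cells, was at 229 and 242 CPM against 134 and 145 CPM, a log2 difference of 0.78 (SE 0.03) that all 10 alternatives called. With Itgam it made up the 2 of 4 tested myeloid markers that rose. The 15 listed myeloid markers summed to 243 and 257 CPM against 147 and 160 CPM, mostly Ly6c2, while 8 or 9 of them were at 0 in each sum, among these Adgre1, C1qa, S100a8 and Fcgr1.

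Other marker lists gave no common direction. Of 5 tested gamma-delta, NKT and MAIT markers, 1 rose and 1 fell. Of 6 tested CD4 and regulatory T cell markers 1 rose and 1 fell, and of 7 tested dendritic cell markers 1 rose and 2 fell. None of 3 tested B cell markers and not the 1 tested erythroid marker passed. Of the 13 CD8 T cell markers, 1 rose, Trbc2, by 0.14. The transgenic receptor's beta segment, Trbv13-3, made up 87.8 and 88.1% of UMIs in Trbv segments in Gzmk-high cells and 90.8 and 90.1% in matched Gzmk-zero cells.

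The genes next to Gzmk rose with it. Within 1 Mb of Gzmk on mouse chromosome 13, GENCODE M21 (GRCm38) lists 32 other genes, 12 of them tested, of which 4 rose and none fell. Of all 11515 tested genes, 2.79% rose. These 4 neighbours were the tested genes nearest to Gzmk. Gzma, among these 4, was also a marker chosen with results of these data in view, so its rise is no independent evidence. Gzma (chr13:113093825-113100981, minus strand) lies on one side of Gzmk (chr13:113171608-113225908, minus strand). Esm1 (chr13:113209659-113218098, plus strand), which encodes a secreted proteoglycan, was at 38.3 and 40.6 CPM against 15.5 and 22.8 CPM. Its log2 difference was 1.06 (SE 0.07, 1.32 and 0.86 by library), which all 10 alternatives called. Beyond Gzma, Gpx8 (chr13:113042753-113046410, minus strand), a glutathione peroxidase family member, was at 18.2 and 21.8 CPM against 10.5 and 12.4 CPM (log2 difference 0.83, 9 of 10 alternatives, DESeq2 adjusted p = 0.0624). Cdc20b (chr13:113035111-113091195, plus strand) was at 4.73 and 5.10 CPM against 1.58 and 1.64 CPM (log2 difference 1.64, 9 of 10 alternatives). The 8 tested genes farther away, from Ccno on one side and Snx18 on the other, had log2 differences between 0.00 and 0.39, and none passed. Esm1 lies inside the longest annotated Gzmk transcript and Gpx8 inside Cdc20b, each on the opposite strand. Whether counting used strand is not stated in the labels or files, so the values of these pairs are uncertain. Esm1, Gpx8, Cdc20b and Gzma were also higher in Gzmk-zero butyrate than in Gzmk-zero control cells, by 3.35, 3.72, 3.72 and 2.40 on the log2 scale, where 34.9% of 13074 genes were higher in edgeR's test.

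**Figure D4:**
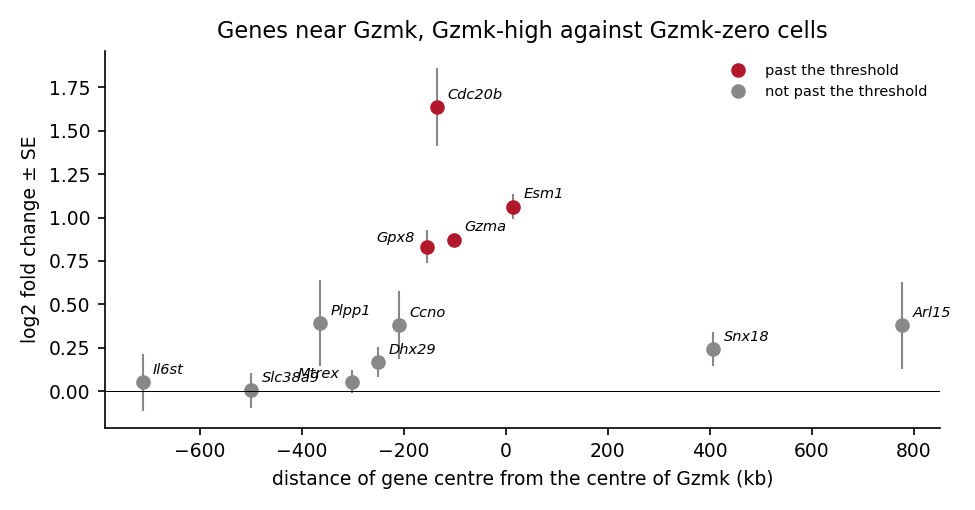
Log2 fold change (± SE) of Gzmk-high over depth-matched Gzmk-zero cells for the 12 tested genes within 1 Mb of Gzmk, against the distance between gene centres in kb. The 4 genes past the threshold, in red, lie closest to Gzmk, and the others have log2 differences of at most 0.39.

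Eomes, like Gzma and Prf1, was higher in Gzmk-high than in matched Gzmk-zero cells. In Gzmk-zero butyrate against Gzmk-zero control cells, Eomes was lower by 0.57 on the log2 scale. Gzma was higher there by 2.40 and Prf1 by 4.11. Within Gzmk-high cells, Spearman correlations with Gzmk were 0.065 and 0.018 for Eomes. They were 0.17 and 0.068 for Gzma and 0.11 and 0.060 for Prf1. A role of Eomes in these levels was not tested. The 250 bases before the start of Gzmk, Gzma and Prf1 are shown, from RefSeq (GRCm38.p6), 5′ to 3′ on each gene's strand. For Gzmk this RefSeq start differs from the GENCODE start: the window lies inside the GENCODE span given above. By the RefSeq start, Esm1 lies before the gene and not inside it. The letters AGGTGT or their reverse complement ACACCT, a core recognised by T-box factors, are in capitals.
Gzmk, chr13:113180966-113181215, minus strand: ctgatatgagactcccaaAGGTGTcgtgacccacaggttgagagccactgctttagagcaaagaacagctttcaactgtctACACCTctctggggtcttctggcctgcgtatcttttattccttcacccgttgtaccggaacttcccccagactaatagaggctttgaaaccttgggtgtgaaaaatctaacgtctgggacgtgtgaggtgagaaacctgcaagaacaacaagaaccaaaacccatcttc
Gzma, chr13:113100982-113101231, minus strand: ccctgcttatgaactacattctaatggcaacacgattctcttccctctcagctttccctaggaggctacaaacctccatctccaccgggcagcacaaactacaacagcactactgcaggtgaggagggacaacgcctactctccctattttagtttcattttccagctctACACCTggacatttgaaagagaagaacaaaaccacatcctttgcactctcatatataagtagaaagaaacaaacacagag
Prf1, chr10:61297586-61297835, plus strand: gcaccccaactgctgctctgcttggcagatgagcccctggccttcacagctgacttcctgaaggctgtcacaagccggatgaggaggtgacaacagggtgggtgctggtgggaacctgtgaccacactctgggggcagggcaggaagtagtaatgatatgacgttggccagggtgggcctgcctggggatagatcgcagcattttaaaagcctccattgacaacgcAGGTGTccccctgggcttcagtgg
The Gzmk window holds the letters at 2 places, beginning 232 and 169 bases before the start, the Gzma window at 1 place, 80 bases before, and the Prf1 window at 1 place, 24 bases before. Searched on both strands, 11.8% of 32851 promoter windows of this length held them. The windows of Esm1 and Eomes did not. A match of letters is a description and does not show that a factor is bound there.

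Other changes were smaller. Of 54 tested G2M phase genes none rose and 18 fell (median log2 difference -0.13), among them Cenpf by 0.30, Ube2c by 0.22 and Mki67 by 0.13, from 385 and 385 to 345 and 344 CPM. The median share of UMIs in G2M genes was 0.638 and 0.641% in Gzmk-high and 0.725 and 0.713% in matched Gzmk-zero cells. Without depth matching the median share was higher in Gzmk-high cells (0.641 and 0.642% against 0.601 and 0.588%) and Ube2c had a log2 difference of 0.14, while Mki67 was lower there too (344 and 343 CPM against 405 and 376 CPM). Of 44 tested S phase genes, 1 rose and none fell. Of 24 tested interferon response genes, 4 fell and none rose (median log2 difference -0.10). Of 20 tested glycolysis genes 4 rose, by 0.12 to 0.21, and of 21 tested cholesterol synthesis genes 2 rose, Fdps by 0.22 and Hmgcs1 by 0.25. Of 16 tested inhibitory receptor and exhaustion genes 4 rose, among them Havcr2, the TIM-3 gene, by 0.46 and Pdcd1, the PD-1 gene, by 0.29, and 2 fell, among them Cd160 by 0.41.

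Among the other genes with the largest changes, Arsb, a lysosomal arylsulfatase, was at 52.3 and 59.4 CPM against 25.3 and 29.1 CPM. Its log2 difference of 1.07 (1.07 and 1.06 by library) was called in all 10 alternatives. Asb2, a substrate receptor of a ubiquitin ligase, was at 19.6 and 26.8 CPM against 45.0 and 48.9 CPM (log2 difference -0.98, all 10 alternatives). Inpp4b, a phosphoinositide phosphatase, fell by 0.49 in the same way. Ckb, the brain-type creatine kinase, was at 98.0 and 90.5 CPM against 135 and 133 CPM (log2 difference -0.48, all 10 alternatives), while control cells had 6.23 and 6.15 CPM. Arsb, Asb2 and Inpp4b were in none of the gene lists, and Ckb was in 2 lists of genes raised by deacetylase inhibitors or butyrate.

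Levels were also set beside the control cultures, whose cells were not depth matched. All control cells had Ly6c2 at 232 and 246 CPM, and the levels of Ly6c2 and Eomes in Gzmk-high cells lay nearer to control than those of all Gzmk-zero butyrate cells (142 and 149 CPM for Ly6c2, 30.4 and 37.7 CPM for Eomes) did. Gzma, Prf1, Ccl5 and Tcf7 went the other way, with levels in Gzmk-high cells farther from control than those of Gzmk-zero cells. Nearness to control was not tested for any of these genes. Klf2 was at 30.2 and 28.1 CPM in all Gzmk-zero butyrate cells and 32.6 and 32.9 CPM in Gzmk-zero control cells, and did not pass there (log2 difference 0.02, edgeR adjusted p = 0.723). Of the 4 marker genes besides Gzmk, all were higher in Gzmk-zero butyrate than in Gzmk-zero control cells, Prf1 by 4.11 (edgeR adjusted p = 3.53e-17), Ccl4 by 5.29, Gzma by 2.40 and Ifng by 5.02 on the log2 scale. In that comparison 69.7% of 13074 genes passed. Asb2 and Il24, which were lower in Gzmk-high than in Gzmk-zero cells, were higher in Gzmk-zero butyrate than in Gzmk-zero control cells, by 2.49 and 2.92.

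Within the butyrate cultures, levels were also followed from cells with no Gzmk UMI to cells with 10 or more, without depth matching. Median depth moved with these bands, from 23325 and 21891 UMIs at 0 to 38702 and 37352 UMIs at 10 or more, and its part in the values was not tested. Prf1 went from 425 and 441 CPM at 0 through 643 and 693 CPM at 1 or 2 Gzmk UMIs to 1214 and 1270 CPM at 10 or more. Arsb went from 27.3 and 29.3 to 63.0 and 70.8 CPM and Ly6c2 from 142 and 149 to 256 and 274 CPM, with each band above the one before it in both libraries. Tcf7 went down, from 9.96 and 11.7 CPM to 1.22 and 2.98 CPM. Esm1 did not follow the number of Gzmk UMIs: it was highest, at 51.5 and 48.4 CPM, in cells with 3 or 4. Cells with 1 or 2 Gzmk UMIs, which belong to neither class, lay between the ends for Gzma, at 9934 and 11875 CPM.

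**Figure D5:**
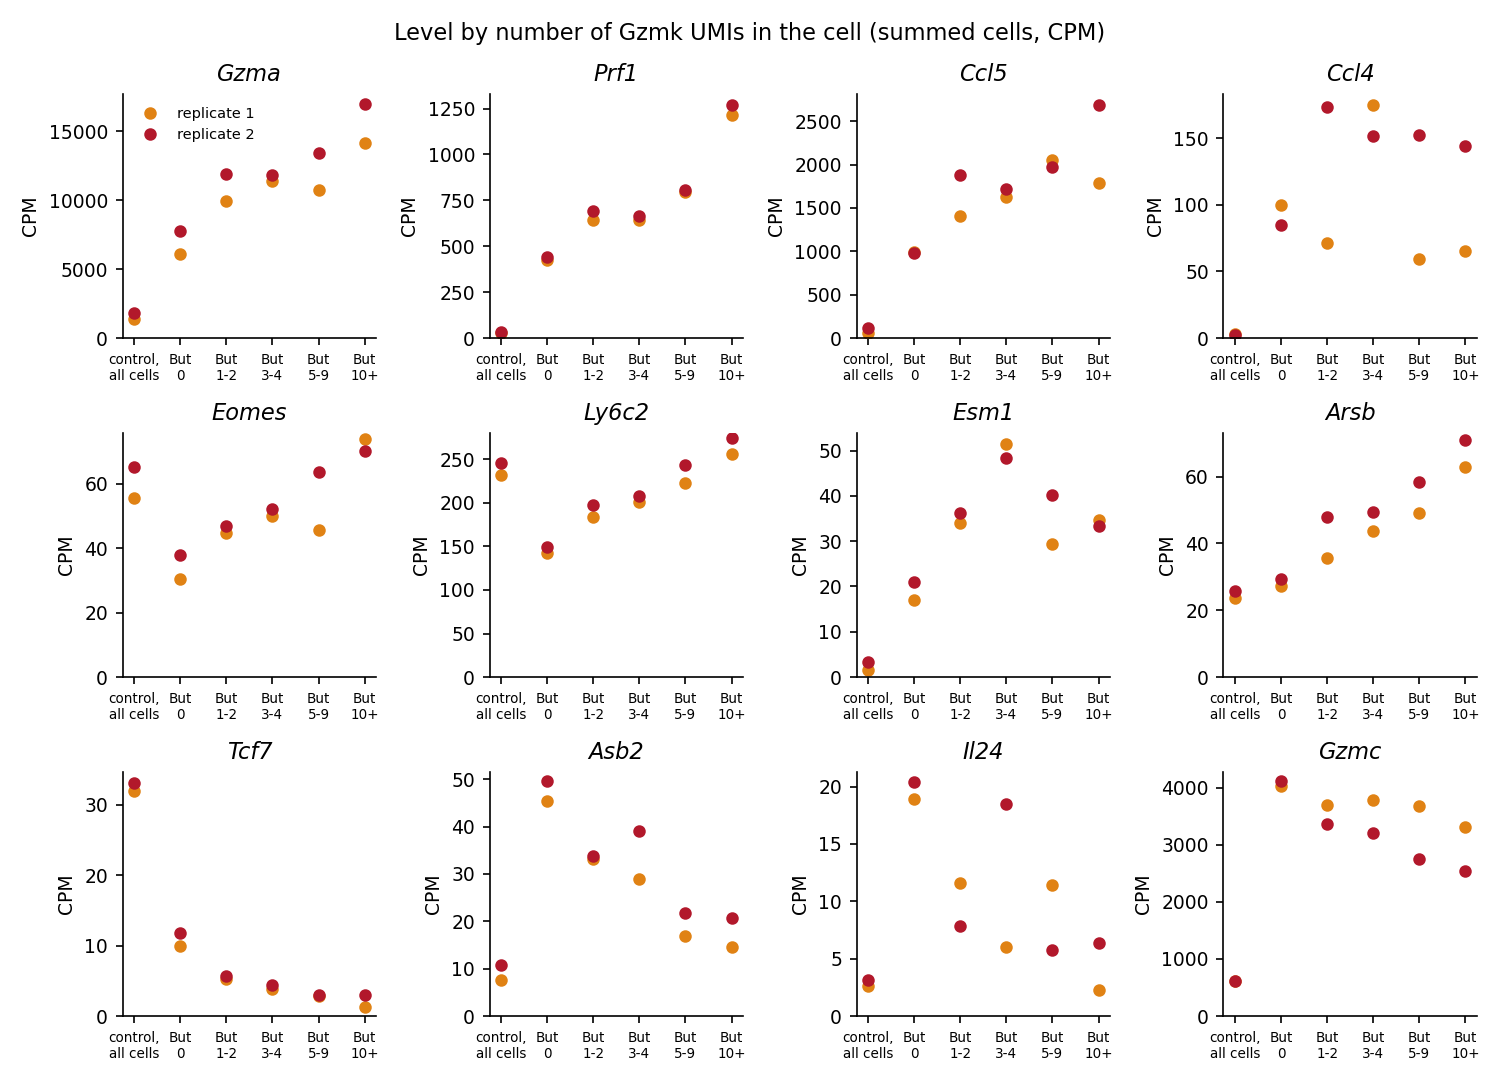
Level (CPM of summed cells, 1 point per library) of 12 genes in all control cells and in butyrate cells with 0, 1 to 2, 3 to 4, 5 to 9 and 10 or more Gzmk UMIs. Prf1, Arsb and Ly6c2 are highest and Tcf7 lowest at 10 or more Gzmk UMIs, while Esm1 is highest at 3 to 4.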

How the data were processed

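The authors deposited unfiltered matrices of UMI counts, with 32285 genes. Cell Ranger 4, Seurat 4.3 and the mm10 build appear in the submitters' processing notes. Whether intronic reads or strand were used in counting is not given in the sources used here. Members, gene lists, marker genes and comparisons were chosen with earlier results of these data known. Cells were barcodes with at least 6500 UMIs, 500 genes and under 10% mitochondrial UMIs. No doublet caller was run, and an alternative left out the 5% of cells with most UMIs. Cells were summed per class and library and the sums compared by the quasi-likelihood F test of edgeR 4.0.16 (R 4.3.3), with filterByExpr, TMM factors, a robust prior, and Benjamini-Hochberg adjustment over all tested genes at a threshold of 0.05. The SE is the size of the fold change on the log2 scale over the root of F. DESeq2 1.42.0 was an alternative, and its adjusted p was NA for 8230 of 16979 genes. The fit was also run on counts simulated with the same spread for every gene. Such counts lack the few-cell peaks seen here, so that run does not show whether the p-values hold for these data.

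The Gzmk-high comparison had the library as a block, because both classes came from the same culture. For butyrate against control in Gzmk-zero cells, replicate numbers stand for the mouse by the labels' library names. The deviations of same-numbered libraries from their group means had a correlation of 0.0442 across 13074 genes (Spearman 0.0478, 2 pairs). The replicates are 1 culture from each of 2 mice, so the p-values do not carry over to other mice.

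Named genes were a fixed set (the markers, Gzmb, Ccl3, Ccl5, Eomes, Tbx21, Tcf7, Il7r, Klrg1, Cd8a and Mki67), tested genes within 1 Mb of Gzmk, the 12 largest increases and decreases at a mean of at least 20 CPM with 1 direction in both libraries, and up to 4 genes per list, for 28 lists. Coordinates came from GENCODE M21, which held 32158 of the 32285 gene IDs. Shares of cells with a UMI used cells thinned at random to 8000 UMIs.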

Additional observations from a re-analysis of the deposited data

Results flagged for a closer look

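Ifng had opposite directions in the 2 butyrate libraries: its log2 fold change in Gzmk-high over matched Gzmk-zero cells was -0.93 in butyrate 1 and 0.99 in butyrate 2. In butyrate 1, a single matched Gzmk-zero cell held 291 of the 448 Ifng UMIs of its class. The share of thinned cells with an Ifng UMI was higher in Gzmk-high cells of both libraries (10.3 and 10.7% against 5.71 and 5.95%), with overlapping intervals. The difference in fold change between the libraries was not tested. Hba-a1, a haemoglobin gene at under 1 CPM in each of the 4 compared sums, also had opposite directions (-0.77 and 0.61), and this was not tested either.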

How the results depend on the processing

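Against the 321 higher and 243 lower genes, all Gzmk-zero cells without depth matching gave 1601 and 1125, DESeq2 34 and 20, the cells below the median share of cell cycle RNA 109 and 120, and no replicate block 86 and 54. A mitochondrial limit of 5% gave 152 lower genes, and thinning to 8000 UMIs 107 lower genes. The thinned setting also changed the classes. It compared cells that kept at least 1 Gzmk UMI with all cells that kept none, unpaired (515 against 1991 and 648 against 1948 cells). Some Gzmk-high cells thus fell among the cells with none. Scaling by library totals gave 216 higher and 353 lower genes and moved the share of higher calls from 56.9 to 38.0%. In Gzmk-zero butyrate against control cells, adding the mouse as a replicate block gave 4634 higher and 4656 lower genes, against 4562 and 4557 without it. Library totals gave 3217 and 6398 there and shifted the median log2 fold change to -0.20. Without 1 library, the higher calls ranged from 4184 to 4350 and the lower from 4099 to 4354.

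Of 84 named genes that passed, 11 passed in all 10 tested alternatives and 24 in DESeq2. Leaving out either library left no test. Some directions turned. Against all Gzmk-zero cells, log2 values were -0.086 for Itga4, -0.053 for Ctla4, -0.081 for Egr1, -0.15 for Dtl, 0.14 for Ube2c, 0.045 for Ccnb1, -0.16 for Btg1, 0.029 for Tcrg-C2 and -0.17 for Il2ra. Below the median share of cell cycle RNA they were -0.063 for Ccl3, -0.31 for Klrg1, -0.064 for Osm, 0.049 for Ube2c, 0.049 for Ccnb1, -0.019 for Pfkp and -0.18 for Il2ra. In the thinned setting, with its changed classes, they were -0.11 for Ctla4, -0.0026 for H2-T23 and -0.12 for Il2ra. The causes were not tested.

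Cells with at least 1 Gzmk UMI after thinning made up 20.6 and 24.96% of butyrate and, in control 2, 1.75% of cells. At a mitochondrial limit of 5%, Gzmk-high shares were 21.2 and 24.7% and, in control 2, 0.665%. Unthinned, the mean difference between Gzmk-high and Gzmk-zero shares was 6.23 points for Gzma (13.8 thinned), 11.99 for Ifng (4.68) and 15.5 for Ccl4 (6.56). Depth matching changed the difference in median UMIs from 9108 to -8, genes from 564 to -58.5, mitochondrial share from -0.803 to -0.137 points, ribosomal share from -0.820 to -0.022 points and G2M share from 0.0465 to -0.0797 points. Depth limits genes such as Tcf7, Klrg1, Csf2 and Cdc20b, which were under 6 CPM in Gzmk-high cells.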

Other observations

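Barcodes left out for a mitochondrial share of 10% or more included 3 of 64 (4.69%) in butyrate 1 and 1 of 83 (1.20%) in butyrate 2 with at least 3 Gzmk UMIs, against 1 of 225 and 0 of 308 in control. Barcodes with 1000 to 6499 UMIs and a lower mitochondrial share held none in any library.

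Il13 and Khdc1a, both outside the named set, chosen here after their values were seen, had large changes carried by 1 library. Il13, a type 2 cytokine gene, had log2 fold changes of -3.07 in butyrate 1 and -0.28 in butyrate 2. Khdc1a had 0.40 and 2.08.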
